A study of Canis lupus familiaris with 10 samples.

Results

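Keratins, the transcription factor TP63 and the adhesion molecule EPCAM mark the epithelial cells that surround and overlie a skin tumour. Their transcripts were measured here in canine cutaneous histiocytoma (CCH), a benign tumour of Langerhans cell origin that grows in the skin of dogs and usually regresses. Of 9 keratinocyte and epithelial genes looked for by symbol (KRT5, KRT7, KRT8, KRT14, KRT18, KRT19, TP63, EPCAM and DSC2), 6 were rows of the deposited table of 800 panel genes, namely KRT14, TP63, EPCAM, KRT7, KRT8 and KRT18. The other 3 (KRT5, KRT19 and DSC2) were not analysed here. The 6 genes were compared between 5 early CCH (group 1 of the Cockerell and Slauson scheme) and 5 late CCH (group 3 of that scheme, labelled as rich in lymphocytes). The question is whether transcripts of the epithelium differed between early tumours and late tumours rich in lymphocytes.

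All 10 samples were formalin-fixed, paraffin-embedded (FFPE) tumours of privately owned dogs, each tumour from a different dog and none pooled, without a stated treatment. Early tumours came from 2 French Bulldogs, a Goldendoodle, a Terrier and a Boxer, aged between 0.5 and 5 years in the 4 dogs with a stated age. Late tumours came from a Rottweiler, a Beagle, a Pug, a Bullterrier and a Jack Russell Terrier, aged between 1.5 and 9 years. Scrolls were cut from whole cross sections after the tissue next to the tumour had been trimmed away, and no normal skin was included as a control. In such bulk samples fewer cells of a type and less RNA per cell cannot be told apart.

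Keratins form the intermediate filaments of epithelial cells, always as a type I chain bound to a type II chain. KRT14 is the type I keratin of the basal layer of the epidermis and of the outer sheath of hair follicles. KRT18 (type I) pairs with KRT8 (type II) in simple and glandular epithelia, and KRT7 (type II) is found in gland ducts and other simple epithelia. TP63 encodes the transcription factor that maintains basal keratinocytes. EPCAM encodes a membrane protein of simple epithelia and hair follicles that is also known from Langerhans cells, and it is thus not a marker of keratinocytes alone.

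Barcode counts recovered from the deposited values summed to between 484696 and 823763 per early and between 945399 and 1253083 per late sample. These counts were inferred from the spacing of the gene values, and the control rows are on another scale, so that totals, backgrounds and counting intervals rest on that inference. The background of a sample, set at the mean plus 2 SD of its 8 negative control probes, lay between 21.8 and 38.2 normalized counts in early and between 19.2 and 26.9 in late CCH. DV200, the percentage of RNA fragments long enough for such assays, ranged from 64.5 to 71.2 in early and from 71.2 to 75.8 in late CCH, as labelled. For late 5 another source of the study gives a different DV200, which could change the fits with DV200 as a covariate. As labelled, the ranges of the stages meet only at 71.2. DV200 and stage can therefore hardly be told apart, and fits with DV200 as a covariate separate them poorly. According to the sample sheet of the study each stage was run on an nCounter cartridge of its own, and therefore cartridge and stage cannot be told apart. The ratio of positive control POS_A to positive control POS_B ranged from 2.09 to 2.17 in early and from 2.72 to 2.84 in late samples, without overlap. Its part in the values of the genes was not tested. Over all tested panel genes, 27.3% were higher in late CCH past the Benjamini-Hochberg (BH) threshold in limma. The 5 T cell markers examined (CD3D, CD3E, CD3G, CD2 and CD5) were all higher in late CCH past it, with summed levels of 368 to 7134 normalized counts in early and 9317 to 13612 in late samples. Early tumours were not free of T cell transcripts, since CD3E was 3402 normalized counts in early 3 and 2090.4 in early 4, beside 42.3 in early 1 and 3853 in late 3. Without early 5, late 1 or late 4 only 2 of them passed, and without late 2 it was 3.

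None of the 6 epithelial genes passed the test between the stages, with log2 fold changes of early over late CCH from -0.73 (KRT7) to 0.89 (EPCAM). With limma p-values adjusted after Benjamini and Yekutieli (BY) to 0.05 or less, and with a change of 2-fold or more, 0 of the 6 were called, against 85 of 761 tested genes (11.2%). At a BH adjusted p of at most 0.05 the count was again 0 of 6, against 272 genes or 35.7% of the panel, and at an unadjusted p under 0.05 it was 0 of 6 against 45.3%. In each of the 6 genes the values of the stages overlapped, whereas 24.6% of the tested genes did not overlap. All 6 genes passed the filter on low values. The panel counts depended on the fit. BY calls over all tested genes were 0 with DV200 as a covariate, 0 in male dogs and 1 with the replicate number as a block. Leaving out a sample at a time gave 39 to 98. The study tested these nCounter samples with the nSolver plug-in, also with BY adjustment and a 2-fold threshold, and reported no significant gene.

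**Figure D1:**
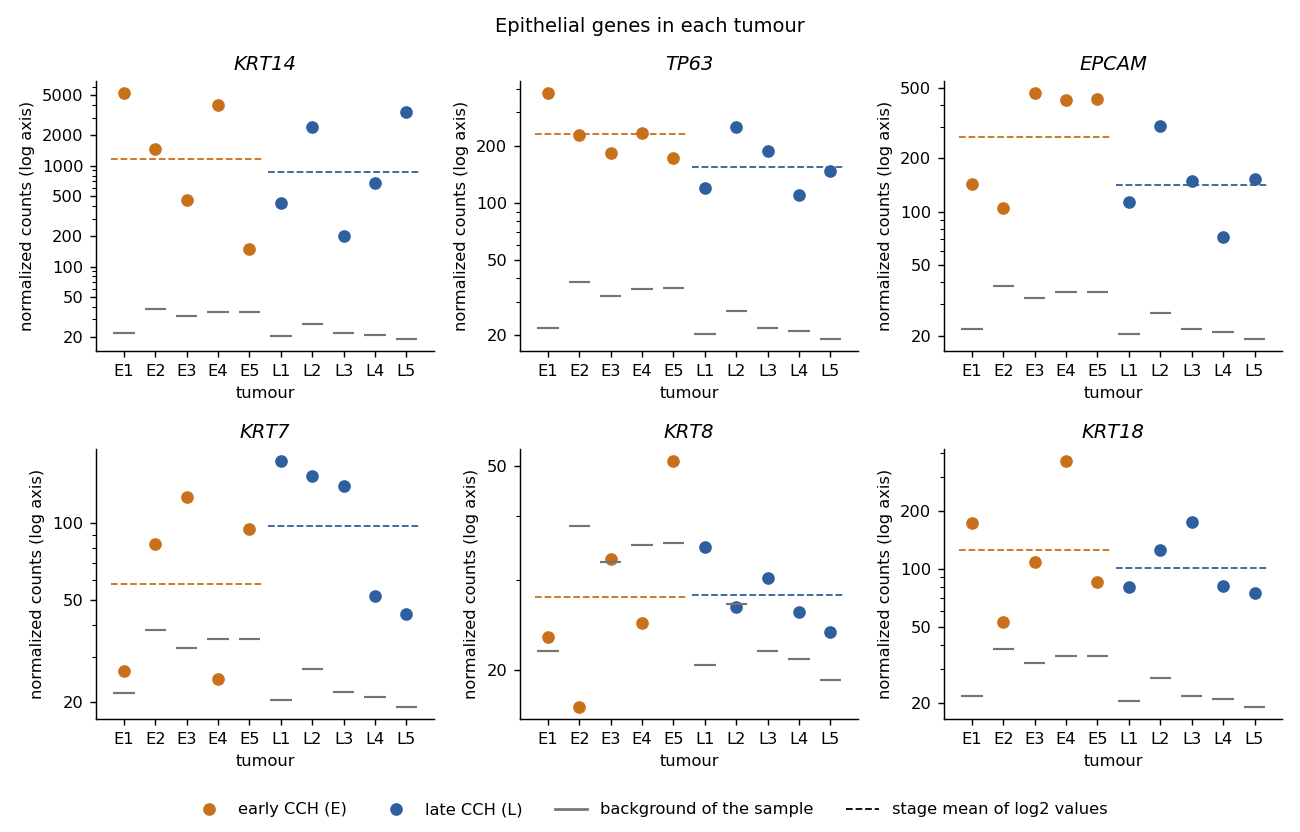
Normalized counts of the 6 epithelial genes (log axis, each with its own range) in the 5 early (E, orange) and 5 late (L, blue) CCH tumours. Grey marks are the background of each sample and dashed lines the stage means of log2 values. KRT14 spans from 149.7 to 5239 normalized counts within early CCH alone, KRT8 lies close to the background, and the stages overlap in every panel.

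KRT14 was the most variable of the epithelial genes. Early CCH had 5239 normalized counts in early 1, 1457 in early 2, 463 in early 3, 3975 in early 4 and 149.7 in early 5. Late CCH had 427 in late 1, 2414 in late 2, 201 in late 3, 669.6 in late 4 and 3382 in late 5. High values (early 1, early 4, late 5 and late 2) and low values (early 5 and late 3) thus occurred in both stages. The means were 2257 ± 2244 (SD, n = 5) for the early against 1419 ± 1403 (SD, n = 5) for the late tumours. Every sample was above its background, by at least 4.23 times in early 5 and by up to 240 times in early 1. The 79 barcodes recovered in early 5 give a 95% exact Poisson interval of 119 to 187 normalized counts, which covers counting only.

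For KRT14 the log2 fold change of early over late CCH was 0.43 (SE 1.08, limma BH adjusted p = 0.789). Its 95% confidence interval ran from -1.97 to 2.84, or from 0.255 to 7.14 as a fold, so that a several-fold difference in either direction was not distinguishable at this spread. The sign of the value turned without early 1 (-0.11), without early 4 (-0.01) and without late 3 (-0.09). Among the 3 early and 4 late male dogs it was 2.23 (limma BH adjusted p = 0.128), and with DV200 as a covariate 0.96 (limma BH adjusted p = 0.748).

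The spread of KRT14 between tumours of the same stage was large for this panel. Its within-stage SD on the log2 scale was 1.94, the 9th largest among the 761 tested genes, where the median gene had 0.46 and the 90th percentile was 1.11. The highest and the lowest sample differed 35.0-fold in early and 16.8-fold in late CCH. KRT7 (1.01), EPCAM (0.90) and KRT18 (0.83) also spread more than the median gene, whereas TP63 (0.46) and KRT8 (0.44) lay near it.

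**Figure D2:**
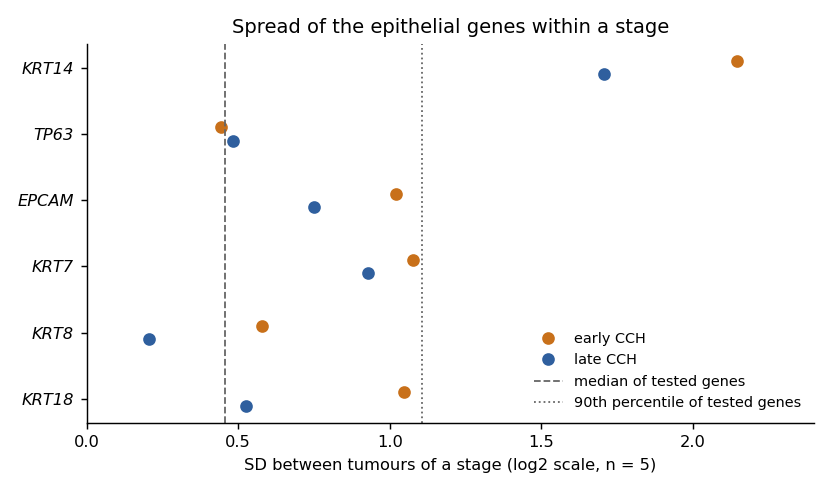
SD between the 5 tumours of a stage on the log2 scale for each epithelial gene, in early (orange) and late (blue) CCH, with the median (dashed) and the 90th percentile (dotted) of the within-stage SD of 761 tested genes. KRT14 lies beyond the 90th percentile in both stages, with 2.15 in early and 1.71 in late CCH.

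TP63 was measured within a much narrower range. Its normalized counts were 378, 229, 184, 234 and 172 in early 1 to early 5 and 119, 249.9, 187, 109.6 and 147 in late 1 to late 5. All 5 early samples exceeded the late median of 147, and only early 1 exceeded late 2, the highest late sample. The mean was 239 ± 81.9 (SD, n = 5) for the early against 162 ± 57.4 (SD, n = 5) for the late tumours. The log2 fold change was 0.56 (SE 0.29, 95% confidence interval -0.08 to 1.21), which did not pass the threshold (limma BH adjusted p = 0.154). It was 1.03 when DV200 was a covariate (limma BH adjusted p = 0.159) and 0.98 in male dogs (limma BH adjusted p = 0.0656).

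EPCAM fell into higher and lower tumours within early CCH. The normalized counts were 144 and 105 in early 1 and early 2, but 466, 429.9 and 432 in early 3, early 4 and early 5. Late samples had 114, 306, 150.0, 72.4 and 153 in late 1 to late 5. Hence 3 of 5 early tumours exceeded every late tumour, while the other 2 early tumours lay below the late median of 150.0. EPCAM was above background in all samples. The means of 315 ± 175 (SD, n = 5) and 159 ± 88.5 (SD, n = 5) gave a log2 fold change of 0.89 (SE 0.52, 95% confidence interval -0.25 to 2.04, limma BH adjusted p = 0.203).

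The values of TP63 and EPCAM depended on how the samples were scaled. Under the deposited housekeeping scaling the panel of 761 tested genes had a median log2 value of -0.18 in this contrast. With a geometric mean of the tested genes as the scale, or with quantile normalization, the median was 0.21. Under geometric mean scaling TP63 had 0.95 and lay past the BH threshold (limma BH adjusted p = 0.0378), as did 45.3% of the panel, while EPCAM had 1.28 and did not (limma BH adjusted p = 0.0529). Under quantile normalization both passed it, with 1.15 (limma BH adjusted p = 0.0137) for TP63 and 1.42 (limma BH adjusted p = 0.0404) for EPCAM, when 42.6% of the panel passed. Neither passed the BY threshold under any of these scalings. Relative to the panel median, TP63 stood 0.74, 0.75 and 0.95 and EPCAM 1.07, 1.08 and 1.21 higher in early CCH under the 3 scalings. Geometric mean scaling multiplies all genes of a sample by the same factor, so that a nearly unchanged distance to the panel median is given in advance.

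**Figure D3:**
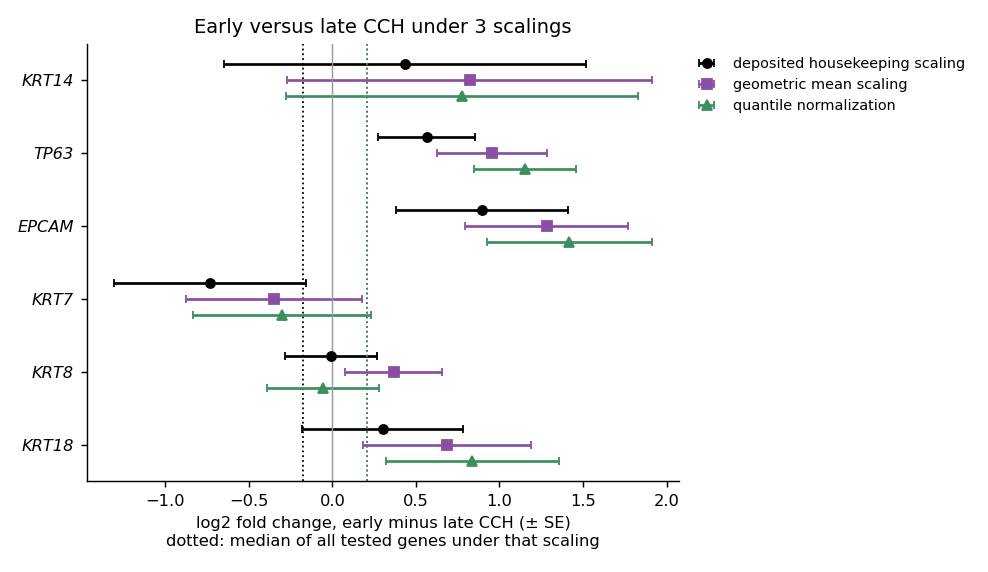
Log2 fold change of early over late CCH (± SE) for the 6 epithelial genes under the deposited housekeeping scaling (black circles), geometric mean scaling (purple squares) and quantile normalization (green triangles), with the median of all tested genes as a dotted line of the same colour. The panel median moved from -0.18 to 0.21, and the values of TP63 and EPCAM moved from 0.56 and 0.89 to at least 0.95 and 1.28.

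Among the keratins of simple epithelia, KRT7 had the lowest log2 fold change of the 6 genes. Early CCH had 26.45, 83.1, 127, 24.7 and 94.7 normalized counts in early 1 to early 5, and late CCH had 175, 154, 140.3, 52.0 and 44.3 in late 1 to late 5. Late 1, late 2 and late 3 exceeded every early tumour, while late 4 and late 5 lay within the early range. Early 4 was below its background and early 1 just above it (1.21 times). The log2 fold change was -0.73 (SE 0.58, 95% confidence interval -2.01 to 0.54, limma BH adjusted p = 0.343). Without a change of sign it moved to -0.35 under geometric mean scaling, -0.30 under quantile normalization, -0.21 when DV200 was a covariate and -1.17 in male dogs, and none of these passed.

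KRT18 was higher than background in all samples but at most 10.3 times. Its normalized counts were 172, 52.6, 108, 361 and 85.3 in early 1 to early 5 and 80.6, 125, 175, 80.8 and 74.5 in late 1 to late 5. Early 4 had the highest value, and without it the log2 fold change of 0.30 (SE 0.48, 95% confidence interval -0.77 to 1.37, limma BH adjusted p = 0.652) became -0.08. It was higher under geometric mean scaling (0.69), under quantile normalization (0.84), with DV200 (1.16) and in male dogs (0.63), again without passing the test.

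KRT8, the partner of KRT18, was close to the background. Between 10 and 28 barcodes per sample were recovered, against a background of 16.5 to 24.4 counts, and the values ranged from 17.0 to 51.2 normalized counts in early and from 23.8 to 34.7 in late CCH. The other 7 samples were above their background while early 2, early 4 and late 2 were below it, and no sample exceeded it more than 1.70 times. The log2 fold change of -0.01 (SE 0.27, limma BH adjusted p = 0.983) therefore compares values close to background, and its sign turned with the pseudocount, with geometric mean scaling and with a background floor. KRT8 and KRT18 are next to each other among the coding genes of the RefSeq gene table (assembly UU_Cfam_GSD_1.0). The r of their log2 values was 0.02 across the 10 tumours after subtraction of stage means. This r shows little, because KRT8 was close to the background.

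Ratios within a sample do not depend on the scaling to housekeeping genes. The log2 ratio of TP63 to KRT14 was -2.33 ± 1.78 (SD, n = 5) for the early against -2.46 ± 1.65 (SD, n = 5) for the late tumours (exact two-sided permutation p = 0.921, BH adjusted over 2 ratios 0.921). It ranged from -4.08 in early 4 to 0.20 in early 5 and from -4.52 in late 5 to -0.10 in late 3. The log2 ratio of KRT8 to KRT18 was -2.13 ± 1.21 (SD, n = 5) and -1.82 ± 0.52 (SD, n = 5) (exact two-sided permutation p = 0.659, BH adjusted 0.921), a ratio that shows little of KRT8 because its values were close to background. The sign of the difference turned for TP63 to KRT14 without early 3, early 5, late 2 or late 5 (lowest -0.50), and for KRT8 to KRT18 without early 4 (0.11).

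Relations of the other 5 epithelial genes with KRT14 differed in sign across tumours, and none passed the BH threshold by Pearson's r. With 10 samples such values cannot show whether the genes varied together. With KRT14 as reference and log2 values over 10 samples, TP63 had a Pearson's r of 0.54 (permutation p = 0.109, BH adjusted over 5 relations 0.182) and a Spearman's rho of 0.55 (permutation p = 0.106, BH adjusted 0.176). The r of TP63 was 0.41 without early 1 and early 5, the samples farthest from the KRT14 median, and it was 0.85 within early and 0.26 within late CCH (n = 5 each). KRT18 (r = 0.29, rho = 0.18, permutation p = 0.419 and 0.634) and EPCAM (r = -0.06, rho = -0.10, permutation p = 0.867 and 0.786) showed no relation with KRT14 that passed the test (BH adjusted 0.524 and 0.867 for r, and 0.786 for both rho). Within early and late CCH the r of KRT18 was 0.58 and -0.45, and that of EPCAM -0.49 and 0.46. Without early 1 and early 5 it was 0.14 for KRT18 and 0.30 for EPCAM.

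KRT7 and KRT8 had a negative r with KRT14, with late 2 as an exception that was high in both KRT14 and KRT7. For KRT7, r was -0.68 (permutation p = 0.0360, BH adjusted 0.0899) and rho was -0.68 (permutation p = 0.0337, BH adjusted 0.0843), with r = -0.65 without early 1 and early 5, -0.85 within early and -0.45 within late CCH. Without late 2 it was -0.84 and passed the test (permutation p adjusted by BH 0.0376). For KRT8, r was -0.73 (permutation p = 0.0115, BH adjusted 0.0573) and rho was -0.81 (permutation p = 0.00726, BH adjusted 0.0363), with r = -0.58 without early 1 and early 5, -0.78 within early and -0.75 within late CCH. Since KRT8 was close to the background and its r was -0.40 under geometric mean scaling, this relation is given as a value only.

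**Figure D4:**
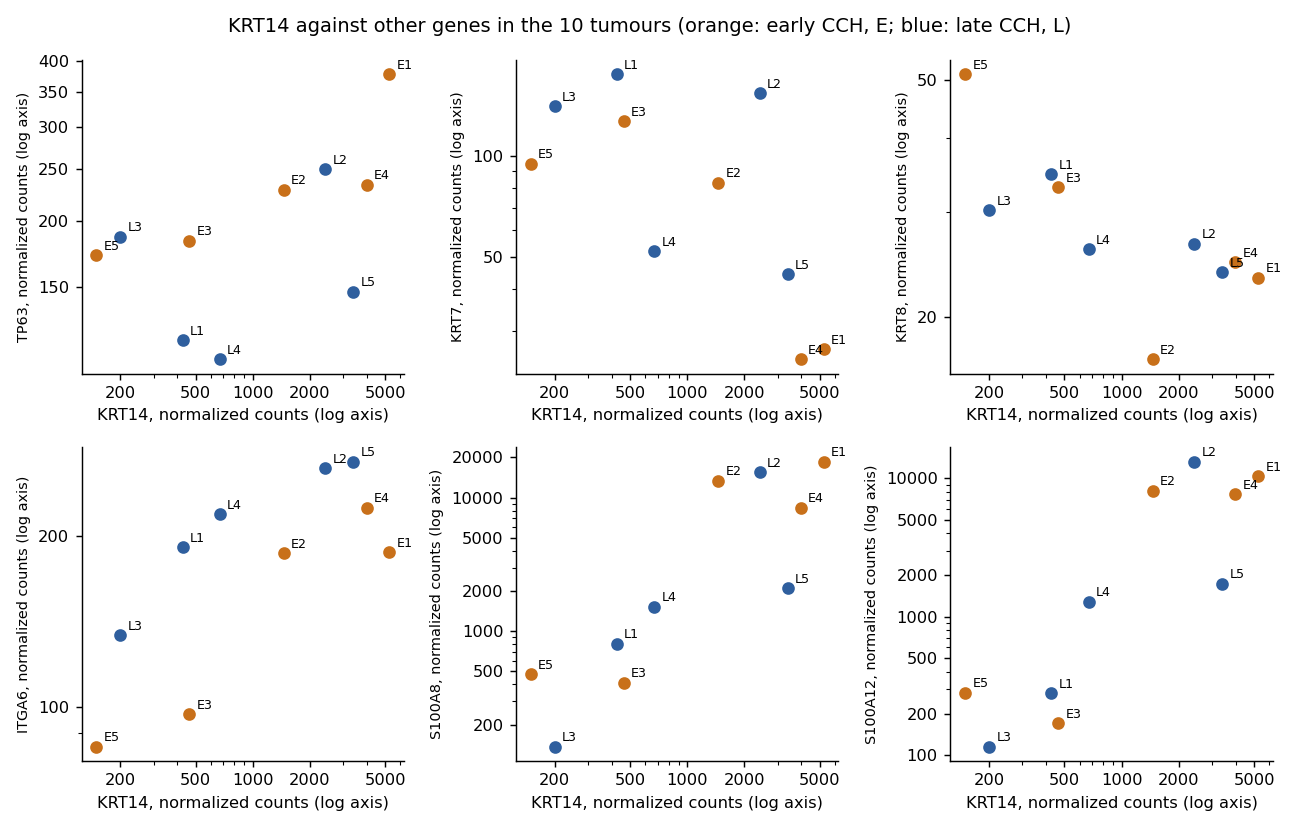
Normalized counts of TP63, KRT7, KRT8, ITGA6, S100A8 and S100A12 (vertical log axes) against KRT14 (horizontal log axis) in the 5 early (E, orange) and 5 late (L, blue) tumours. ITGA6, S100A8 and S100A12 were picked as panel genes with a pattern most like KRT14, whereas KRT7 and KRT8 have an r of -0.68 and -0.73 with KRT14.

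The panel genes with the pattern most like KRT14 were ITGA6 (r = 0.94), S100A12 (0.87), S100A8 (0.87), CDKN2A (0.85) and NCF4 (0.84). The measure of likeness was Pearson's r of log2 values after subtraction of stage means, over 10 samples and among 755 genes outside the 6, and the top of such a ranking is high by choice. ITGA6 encodes the integrin alpha 6 chain that anchors basal keratinocytes to the basement membrane. It was 187, 187, 97.3, 224 and 85.3 normalized counts in early 1 to early 5 and 191, 263, 134, 218 and 270.0 in late 1 to late 5. The order of the tumours within late CCH was that of KRT14, with an r of 0.95 there and of 0.94 within early CCH. In both stages the tumour with the lowest KRT14 (early 5 and late 3) also had the lowest ITGA6. The 26 other genes listed further on had r values from -0.54 (LTF) to 0.94. After ITGA6 and S100A8 the highest were S100A9 (0.82, rank 6), IL1RL2 (0.74, rank 14), CD9 (0.67, rank 24), ERBB3 (0.67, rank 26) and CDH1 (0.67, rank 27). Besides LTF, negative values were those of MET (-0.23), SDC4 (-0.20), PTHLH (-0.17), CEACAM1 (-0.14), IL1A (-0.12), ITGB4 (-0.08) and PIP (-0.06). ITGB4, the partner chain of ITGA6, lay near background.

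S100A8 and S100A12, together with S100A9, encode calcium-binding alarmins that are abundant in neutrophils, and S100A8 and S100A9 also rise in activated keratinocytes. S100A8 was 18630 normalized counts in early 1, 13368 in early 2, 411 in early 3, 8421 in early 4 and 476 in early 5. In late CCH it was 805 in late 1, 15455 in late 2, 137 in late 3, 1531 in late 4 and 2111 in late 5. S100A8 thus ranged 136-fold over the 10 tumours, with the 3rd largest within-stage SD of the panel (2.58). S100A9 had an r of 0.82 with KRT14. NCF4, a subunit of the phagocyte oxidase, had an r of 0.99 within early but 0.50 within late CCH. Whether keratinocytes or infiltrating phagocytes contributed these transcripts was not tested.

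KRT18 had other neighbours in this ranking. The most similar genes were NFKB1 (r = 0.92), a subunit of the transcription factor NF-kB, BCL2 (0.89), an inhibitor of apoptosis, TOX (0.85), CD74 (0.85), the invariant chain of MHC class II, and DLA-79 (0.83), a canine MHC class I gene. None of these 5 was on an epithelial list. The listed epithelial genes FGFR3 (0.68, rank 28), CDH1 (0.64, rank 35) and CLDN1 (0.63, rank 41) followed further down. The r of KRT18 with KRT14 itself was 0.28 by the same measure. For EPCAM the listed genes alone are named here. Among them the highest r values were those of CD1A6 (0.76, rank 8 of 755), PTHLH (0.72, rank 17, close to background), FCER1A (0.63, rank 43), ERBB2 (0.63, rank 49) and CLDN1 (0.61, rank 55), so that unlisted genes lay above them, and the lowest was that of CEACAM1 (-0.77). The other dendritic cell genes had 0.53 (ITGAX), 0.37 (FLT3), 0.17 (CD207) and -0.01 (XCR1), and CDH1 had 0.43.

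A further list of 26 panel genes known from epithelium was followed. Not all of them are particular to epithelium, and which cells contributed their transcripts was not tested. Past the BH threshold, 0 were higher in early CCH (8.41% of the panel), 4 were higher in late CCH (27.3% of the panel) and 22 did not pass, with a median log2 fold change of 0.30 beside -0.18 over all tested genes. This median was 0.15 without early 4 or without late 3, and 0.68 and 0.59 under geometric mean scaling and quantile normalization, where the panel median was 0.21. Past BY and 2-fold, 2 were called, beside 11.2% of the panel. Which genes passed depended on the scaling. Under geometric mean scaling 5 passed with higher early and 3 with higher late values, beside 45.3% of the panel, and under quantile normalization 4 and 2, beside 42.6%.

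Of the 8 junction and adhesion genes, SDC4 and FAT1 were higher in late CCH past the BH threshold. SDC4, a heparan sulfate proteoglycan of the cell surface, averaged 785 ± 545 normalized counts (SD, n = 5) over the early against 2472 ± 588 (SD, n = 5) over the late tumours. Its log2 fold change was -1.84 with an SE of 0.37 (limma BY adjusted p = 0.0343), and the stages did not overlap. Under the other scalings SDC4 still passed BH but not BY (limma BY adjusted p = 0.0558 and 0.0567). Its r, with stage means subtracted, was -0.20 (KRT14), -0.31 (TP63), -0.31 (EPCAM), 0.49 (KRT7), -0.18 (KRT8) and -0.80 (KRT18). FAT1, an atypical cadherin, had a log2 fold change of -0.61 (limma BH adjusted p = 0.0394), a call that was lost under geometric mean scaling (-0.22) and quantile normalization (-0.02). CDH1 and CLDN1, the genes of E-cadherin and of the tight junction protein claudin-1, varied 12.6-fold and 12.4-fold between tumours, and their log2 fold changes of 0.27 and 0.59 did not pass the test (limma BH adjusted p = 0.789 and 0.518). Both were highest in early 4, with 883 and 4629 normalized counts.

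Among the 8 growth factor receptors and ligands, NOTCH1 differed between the stages. This receptor, which drives keratinocytes out of the basal layer and acts in lymphocytes as well, averaged 225 ± 42.0 normalized counts (SD, n = 5) over the early against 459.6 ± 16.2 (SD, n = 5) over the late tumours, with no overlap. The log2 fold change was -1.05 with an SE of 0.17 (limma BY adjusted p = 0.0141). The BY calls of NOTCH1 and SDC4 were lost in the fit of male dogs and in the fit with DV200, each of which left 0 BY calls over all genes. Its BY call was lost under geometric mean scaling, where the BH threshold was still passed (-0.66, limma BH adjusted p = 0.0242), and under quantile normalization it passed neither (-0.43, limma BH adjusted p = 0.107). The receptors EGFR, ERBB2, ERBB3, FGFR3 and MET did not pass the BH threshold, with log2 fold changes between -0.44 (EGFR) and 0.82 (MET). FGFR3 (0.64, limma BH adjusted p = 0.104) passed it under both other scalings, as did ERBB3.

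No member of the 8 epidermal cytokines and alarmins passed the BH threshold under the deposited scaling. IL1A, the interleukin 1 alpha that keratinocytes store, had a log2 fold change of 0.59 (limma BH adjusted p = 0.0808) and lay past it under geometric mean scaling (0.97, limma BH adjusted p = 0.0051) and quantile normalization (1.10, limma BH adjusted p = 0.00198). It also passed BY there (limma BY adjusted p = 0.0368 and 0.0143), and under quantile normalization it met the 2-fold rule as well. S100A8 (1.24) and S100A9 (1.87) had the largest values of the group with SE of 1.44 and 1.12, and neither passed (limma BH adjusted p = 0.524 and 0.218). Of the gland secretion genes, LTF (lactoferrin, found in glands and in neutrophil granules) was higher in late CCH (-2.31, SE 0.65, limma BH adjusted p = 0.0197, not past BY), while PIP, a protein of apocrine secretions, was not called (-0.52, limma BH adjusted p = 0.586).

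**Figure D5:**
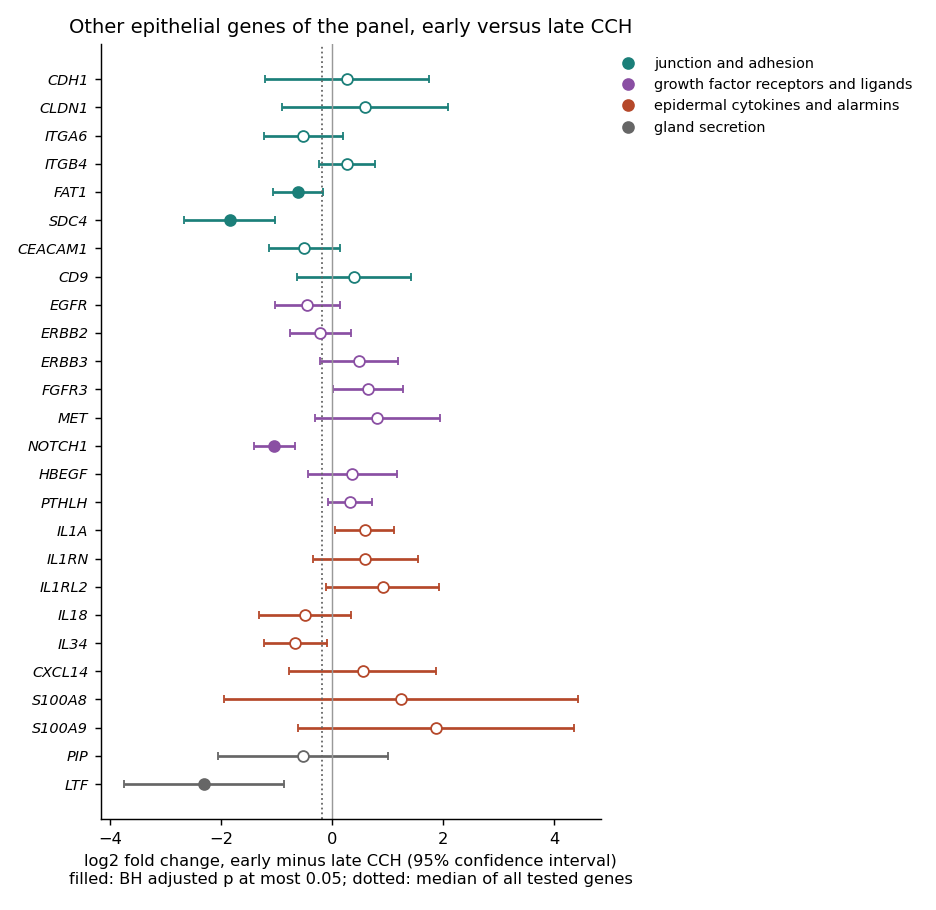
Log2 fold change of early over late CCH with its 95% confidence interval for 26 other panel genes known from epithelium, in 4 groups by colour. Not all of them are particular to epithelium. Filled points passed a BH adjusted p of 0.05 under the deposited scaling, namely SDC4, FAT1, NOTCH1 and LTF, all higher in late CCH. S100A8 and S100A9 have the widest intervals.

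Markers of other cell types are given for the same contrast. The Langerhans and dendritic cell markers FLT3 (2.49) and FCER1A (2.44) were higher in early and XCR1 (-1.60) was higher in late CCH (limma BH adjusted p = 0.00141, 0.0049 and 0.0359), while CD1A6, ITGAX and CD207 did not pass. CD207, the langerin gene that defines Langerhans cells, had at most 38.6 normalized counts, near the background. The fibroblast list had 1 of 5 genes past the threshold (THY1, higher in late CCH), the endothelial list 2 of 4 (CDH5 and CD34, higher in late CCH) and the pigment and mast cell list 2 of 4 (CPA3 and MS4A2, higher in early CCH). Over all tested genes 35.7% passed it, with 27.3% higher in late and 8.41% higher in early CCH. The pigment and mast cell count was 0 without early 1, early 2, late 1, late 3 or late 5 and 1 without early 4, early 5 or late 4, and the fibroblast count was 2 without early 2 or late 3. Summed fibroblast markers ranged from 4880 to 37581 normalized counts in early and from 11985 to 32743 in late CCH. Their part in the values of the epithelial genes was not tested.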

How the data were processed

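Total RNA of 10 FFPE tumours (5 early and 5 late CCH) was hybridised by the authors to the nCounter Canine IO Panel, which counts colour-coded barcodes without amplification. The deposited signal values, here called normalized counts, were scaled by the authors in nSolver to positive controls and then to housekeeping genes. The 14 control rows were left unscaled, and background subtraction was not given in the sources used here. Gene values were whole multiples of a step per sample (within 0.0051 for at least 99.4% of genes), from which barcode counts were recovered for depth, background and counting intervals, and no test was run on them.

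Groups followed the sample titles. limma 3.58.1 in R 4.3.3 (lmFit, eBayes with trend) was run on log2(normalized count + 1) for all 761 genes with a mean of at least 20, with late CCH as baseline and no covariate. Because of the added 1, fold changes of genes with few counts come out too small. Calls needed a BY adjusted p of at most 0.05 and a 2-fold change, and BH counts stand beside them. Correlations used 100000 permutations. With 5 samples against 5 the smallest exact p is 0.00794. In simulated data with 200 of 761 genes changed, 17.5% of changes of 1 and 78.5% of changes of 2 on the log2 scale passed BY and 2-fold.

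The members, lists and tests were chosen with earlier results of these data known. Named genes are the 6 members, the 26 list genes, cell type markers and the 5 genes most like KRT14 and KRT18, and genes compared with EPCAM were chosen after their values were seen. Alternatives covered pseudocount, filter, scaling, trend, DV200, sex, a replicate block, a background floor and leaving out each sample. Of the panel symbols, 773 matched the RefSeq gene table, and no coordinates are given because the panel was designed on another assembly. The sequences of the probes were not used here, and whether the KRT14 probe also binds transcripts of related keratins such as the neighbouring KRT16 was not tested. Figures were drawn with matplotlib 3.10.9.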

Additional observations from a re-analysis of the deposited data

Results flagged for a closer look

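Of 116 groups of 5 samples checked among the epithelial genes, their ratios and the listed genes, 8 held a sample far from the others of its stage, or 6.90%, where chance gives about 5% and the same measure marked 8.54% over all tested genes. None of the 12 groups of the 6 epithelial genes did. The measure is the gap to the nearest sample over the range of the group. Late 2 was high in S100A8 (15455 against 137 to 2111 normalized counts, gap over range 0.871) and in S100A9 (6762 against 89.6 to 1409.6, gap over range 0.802). Early 2 was high in SDC4 (1723 against 394 to 769, 0.717), HBEGF (212 against 56.9 to 100.5, 0.719), PIP (453 against 69.2 to 152, 0.785), PDGFRB (855 against 465 to 559.6, 0.756) and CPA3 (156 against 47.7 to 77.2, 0.728). Early 4 was high in CD1A6 (534 against 25.4 to 147, 0.761).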

How the results depend on the processing

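Members called at BY and 2-fold numbered 0 in all 20 alternatives, and members past BH numbered 0 except under geometric mean scaling (1) and quantile normalization (2). KRT8 turned to 0.0073 with a pseudocount of 10, 0.37 under geometric mean scaling and 0.083 with a background floor. Over all genes, DV200 as a covariate left 0 BY and 45 BH calls, male dogs only 0 and 135, and the replicate block 1 BY call. Same-numbered samples came from different dogs, so that the numbers do not pair the samples. The r of their deviations from stage means ran from -0.20 (replicate 1) to 0.16 (replicate 2). The block changed no call of the 6 members, whereas at least 1 of the BY calls of SDC4 and NOTCH1 was lost with it. Of the list genes 8 passed BH under geometric mean scaling, and of the endothelial markers 1 (chosen after seeing the data).

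Leaving out each sample in turn gave, for log2 fold changes, -0.11 to 1.17 (KRT14), 0.39 to 0.74 (TP63), 0.65 to 1.23 (EPCAM), -1.01 to -0.43 (KRT7), -0.22 to 0.16 (KRT8) and -0.080 to 0.61 (KRT18). It gave 39 to 98 BY calls over all genes, with 47 without early 5, 39 without late 1, 48 without late 2, 41 without late 4 and 52 without late 5. Among markers, with leaving out chosen after seeing the data, 2 to 5 T cell, 1 to 2 fibroblast and 0 to 2 pigment and mast cell genes passed BH. Ratio differences ran from -0.50 to 0.72 (TP63 to KRT14) and from -0.66 to 0.11 (KRT8 to KRT18). The r with KRT14 ran from 0.35 without early 1 to 0.68 (TP63), from 0.02 without early 4 to 0.48 without late 3 (KRT18), from -0.26 to 0.21 (EPCAM, 0.065 under geometric mean scaling), from -0.84 to -0.59 (KRT7, past BH without late 2) and from -0.83 to -0.60 (KRT8, past BH without early 2 and without late 2, and -0.73 with a pseudocount of 10, also past BH). The causes were not tested. KRT8, and KRT7 in early 1 and early 4, lay near background, which limits what their values show.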
